A study of Homo sapiens with 4 samples.

Results

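Accessibility at 10 genes of the pigment cell was followed: the melanin enzymes TYR, TYRP1 and DCT, the melanosome proteins PMEL and MLANA, the melanosome transporters OCA2, SLC45A2 and SLC24A5, the transport GTPase RAB27A and the channel TRPM1. The members were the listed open regions that overlapped the RefSeq GRCh38.p14 span of 1 of the 10 genes or lay within 10 kb of it, which gave 64 of the 125986 regions of the authors' deposited table. The measurements came from ATAC-seq, which reads out where the Tn5 transposase can insert adapters into accessible DNA, in A375, an established line of human melanoma cells. According to the labels, 2 libraries came from cells given 1 mM of the medium-chain fatty acid octanoate and 2 from cells given only the isopropanol vehicle, all for 48 h in the same serum-containing medium. The labels do not say whether the libraries of a group came from separate cultures, so p-values measure the spread between these libraries, which may be technical. They give an average of 40000000 to 50000000 read pairs per sample, and the authors' deposited table has 0 columns for a single library, so no value per library can be shown. The comparison asked whether the regions around pigment genes gained or lost accessibility after octanoate.

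Melanin is made in melanosomes, lysosome-related organelles of melanocytes. TYR, DCT and TYRP1 act in that order on the route from tyrosine to eumelanin, on an amyloid scaffold built by PMEL, while MLANA binds PMEL and takes part in its maturation. OCA2, SLC45A2 and SLC24A5 set the ion balance and pH of the organelle, and RAB27A tethers mature melanosomes to the actin motor through melanophilin. Many of these genes are direct targets of MITF, the lineage transcription factor, which binds an extended E-box known as the M-box, and their expression commonly falls in dedifferentiated melanoma. TRPM1, another MITF target, carries the microRNA miR-211 in an intron.

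The RefSeq table of promoters (GRCh38.p14) held 14 starts for 8 of the 10 genes and none for PMEL or SLC45A2. The M-box core TCATGTG, searched on both strands, lay in the 250 bases upstream of 1 start each of TYR, TYRP1, DCT and SLC24A5, against 443 of the 22198 protein-coding starts in the table. The core contains the E-box CATGTG, which was present upstream of 7.60% of those starts. These 4 upstream stretches are shown because they carry the same M-box core but differ in whether the authors' deposited table lists an open region over them. Each is written 5′ to 3′ on the gene's strand, ending at the base before the annotated start, with each TCATGTG or its reverse complement in capitals.
TYR, chr11:89177625-89177874, plus strand: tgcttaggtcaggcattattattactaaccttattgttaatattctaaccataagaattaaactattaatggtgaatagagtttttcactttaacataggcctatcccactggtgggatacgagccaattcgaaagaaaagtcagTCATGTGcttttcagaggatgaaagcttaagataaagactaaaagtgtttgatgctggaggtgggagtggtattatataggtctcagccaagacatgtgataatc
TYRP1, chr9:12693135-12693384, plus strand: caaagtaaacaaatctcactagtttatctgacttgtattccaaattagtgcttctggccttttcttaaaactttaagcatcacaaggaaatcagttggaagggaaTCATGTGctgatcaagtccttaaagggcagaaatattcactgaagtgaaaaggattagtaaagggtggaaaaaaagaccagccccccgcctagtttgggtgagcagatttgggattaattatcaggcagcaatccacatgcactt
DCT, chr13:94479683-94479932, minus strand: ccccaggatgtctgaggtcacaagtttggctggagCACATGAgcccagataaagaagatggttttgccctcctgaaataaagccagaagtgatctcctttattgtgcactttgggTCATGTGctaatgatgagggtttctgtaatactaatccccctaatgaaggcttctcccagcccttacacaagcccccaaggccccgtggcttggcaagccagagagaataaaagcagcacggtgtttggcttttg
SLC24A5, chr15:48120740-48120989, plus strand: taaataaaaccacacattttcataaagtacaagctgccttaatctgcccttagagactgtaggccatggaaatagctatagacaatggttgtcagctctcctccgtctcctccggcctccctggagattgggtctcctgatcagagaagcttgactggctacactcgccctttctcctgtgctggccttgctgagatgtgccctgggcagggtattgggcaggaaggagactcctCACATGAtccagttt
The first base of the motif lay 105 bases upstream of the start in TYR, 145 in TYRP1, 215 and 135 in DCT and 15 in SLC24A5. Of the 4 stretches, the DCT stretch alone overlapped a listed region, which covered all of it, and 37.2% of the 443 protein-coding starts with the core had a listed region over their upstream bases. A match describes the letters and does not show binding, and a stretch with no listed region is not thereby shown to be closed.

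Of the 8 pigment genes with a start in the table, 3 had a listed region within 1 kb of it in A375 cells, against 75.0% of the 15842 protein-coding genes in the table. Start regions, within 1 kb of an annotated start, were found for DCT, OCA2 and RAB27A, and PMEL had 1 at a gene end. Those of PMEL and SLC45A2 were sought at both ends of the gene span, because no start was in the table, and SLC45A2 had none. For the other genes the nearest region lay 1352 bp from the start in SLC24A5, 1714 bp in TYR, 4329 bp in MLANA, 6211 bp in TYRP1 and 9791 bp in TRPM1. For single starts, 66.3% of all protein-coding ones in the table had a listed region within the 250 upstream bases. The share was 90.8% among starts rich in CpG, defined here by a GC content of at least 55% and an observed to expected CpG ratio of at least 0.6, and 37.6% among the others. Of the pigment genes' starts 3 were CpG-rich by this definition, and 2 of these had a region (RAB27A and the distal start of DCT), while 1 of the 11 others had one, the DCT start shown above. OCA2 had the third CpG-rich start, with a GC content of 78.8%, and its nearest region ended 145 bp inside the gene. By gene and within 1 kb, the 3 pigment genes with a CpG-rich start all had a region, against 93.7% of such genes, and 0 of the 5 without one did, against 44.0%. These shares were not tested, and 5 genes are few.

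Signal was compared between regions as normalized reads per kb of region, averaged over the 4 libraries, from the means of the authors' deposited table. The median was 31.0 over the 64 pigment regions, 27.8 over all nuclear regions and 49.6 over the 12032 regions within 1 kb of a protein-coding start in the table. By this measure, the authors' deposited table put the region over the RAB27A start at 79.7 per kb, above 81.5% of start regions. That region also lay within 1 kb of the starts of PIGB and PIGBOS1. The DCT start regions had 31.4 (distal) and 27.8 (above the M-box stretch) per kb in the authors' deposited table, above 22.6% and 16.9% of start regions. At 18.3 per kb in the authors' deposited table, the region just inside OCA2 exceeded 3.94% of start regions. Signal from a bulk library cannot tell a region open in few cells from one cut less often in every cell. Among markers of other cell types, a region within 1 kb of the start, or of a gene end where no start was in the table, was listed for 8 of 8 melanocytic lineage genes, including MITF, SOX10 and PAX3. It was listed for 1 of 6 keratinocyte, 3 of 6 lymphoid and myeloid, 4 of 4 fibroblast and 2 of 4 hepatocyte genes. Of these, COL1A1, LUM and DCN among the fibroblast genes had no start in the table and were counted from either gene end. Among genes with a start in the table, the counts were 4 of 4 melanocytic, 1 of 3 keratinocyte, 1 of 3 lymphoid and myeloid, 1 of 1 fibroblast and 1 of 3 hepatocyte genes, too few to separate the cell types. Of the melanin enzymes themselves, TYR and TYRP1 had no listed start region.

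**Figure D1:**
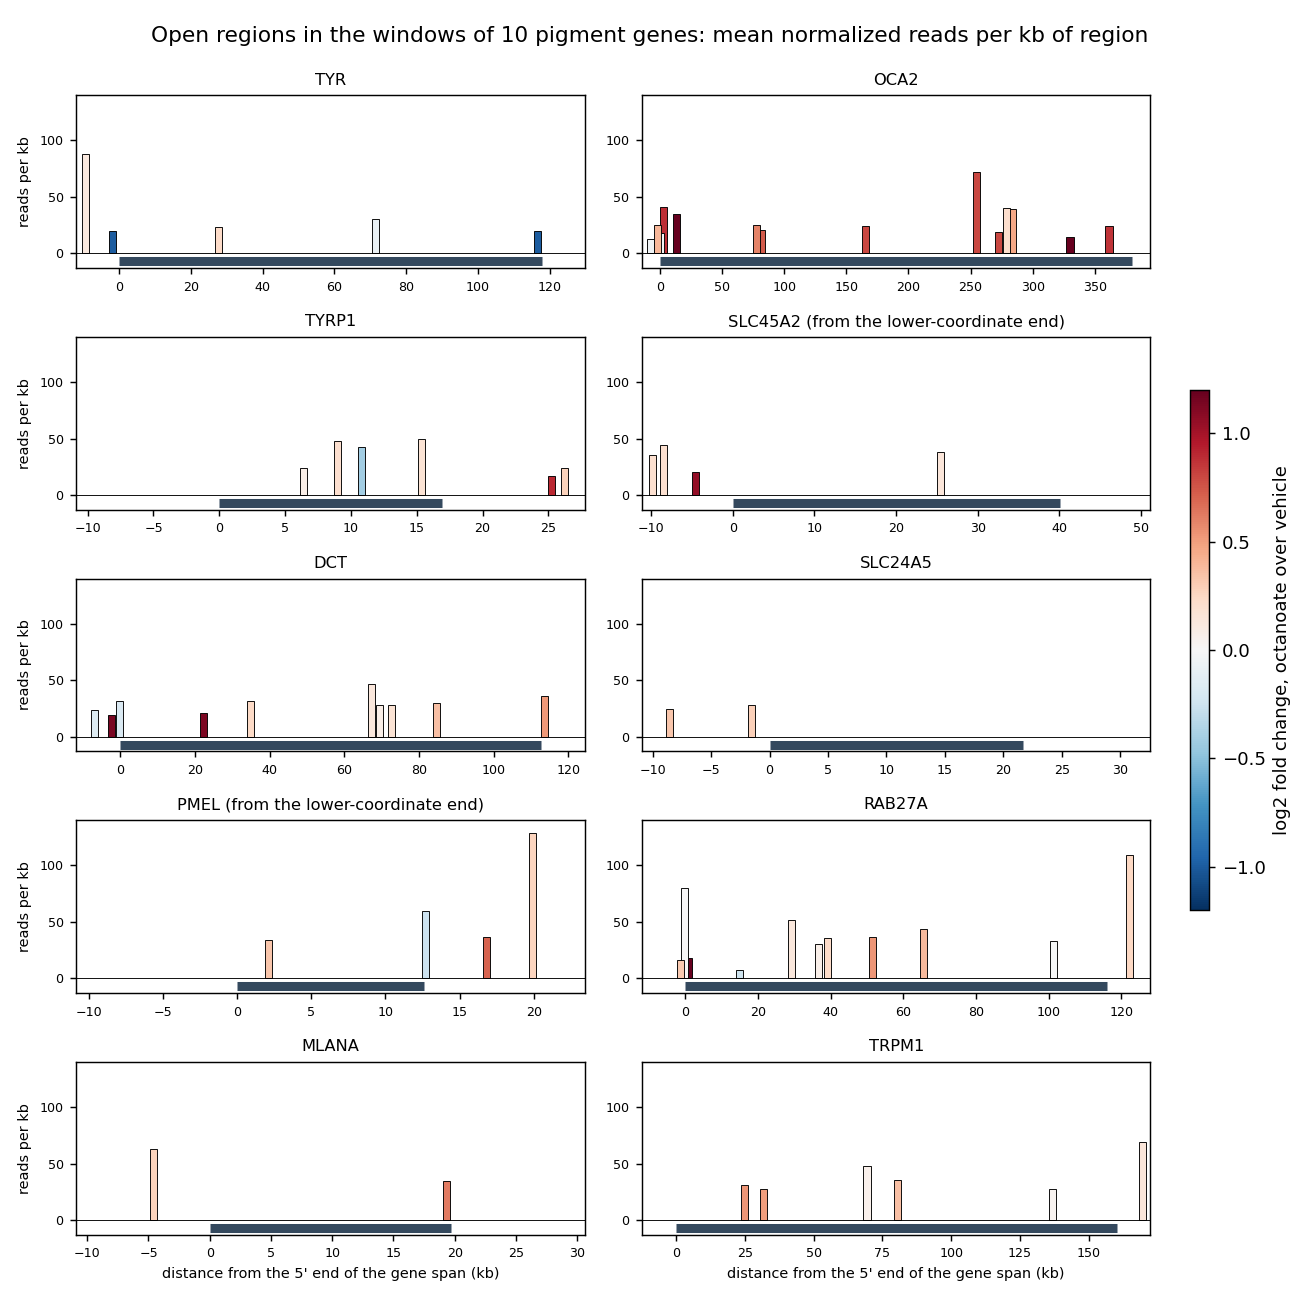
Open regions along the 10 genes: the x axis is the distance from the 5′ end of the gene span in kb (from the lower-coordinate end for PMEL and SLC45A2), the y axis is mean normalized reads per kb of region over the 4 libraries, and the dark bar is the gene span. Bars mark region centres with a fixed drawn width, and their colour is the deposited log2 fold change of octanoate over vehicle, with the most extreme values drawn in the end colours. The tallest bars of PMEL, RAB27A and TRPM1 lie at starts of neighbouring genes, and most OCA2 bars are red.

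No pigment region passed the test. The authors adjusted p only where the mean reached 63.8 normalized reads, and this left 6 of the 64 pigment regions, 9.38% against 8.88% of all nuclear regions. In the authors' deposited table, 0 of these 6 reached an adjusted p under 0.05 by DESeq2 with Benjamini-Hochberg adjustment, where 1.02% of all tested regions did. With 6 regions, a count of 0 is near that background. Only DESeq2, the authors' tool, was run, since there are no counts to test. At an unadjusted DESeq2 Wald p under 0.05, the authors' deposited table had 1 of the 6 higher after octanoate and 0 lower, against 14.8% higher and 0.107% lower of all tested regions. Over all 64, including the 58 that the authors did not test, 3 had such a p in the authors' deposited table, all higher and all in OCA2, or 4.69% against 3.58% of nuclear regions. That share is near the background, so the count is not a result about the 10 genes.

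The median of the pigment regions was close to that of the genome. In the authors' deposited table, their median log2 fold change of octanoate over vehicle was 0.26, against 0.23 over all nuclear regions and 0.19 over the tested ones. Above 0 were 53 of 64 (82.8%, against 72.1% of nuclear regions), and above the nuclear median were 35 of 64 (54.7%). Without OCA2 the median of the remaining 50 regions was 0.21 according to the authors' deposited table. Values for single regions ranged from -0.999 (in TYR) to 1.51 (in RAB27A) in the authors' deposited table, with standard errors from 0.17 to 1.25. The 9 regions more than 0.9 from 0 all had a mean of at most 13.8 normalized reads, with standard errors from 0.59 to 1.25. The 95% interval, taken as 1.96 standard errors on each side, contained the nuclear median of 0.23 for 63 of the 64 regions, the exception being 1 in OCA2.

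**Figure D2:**
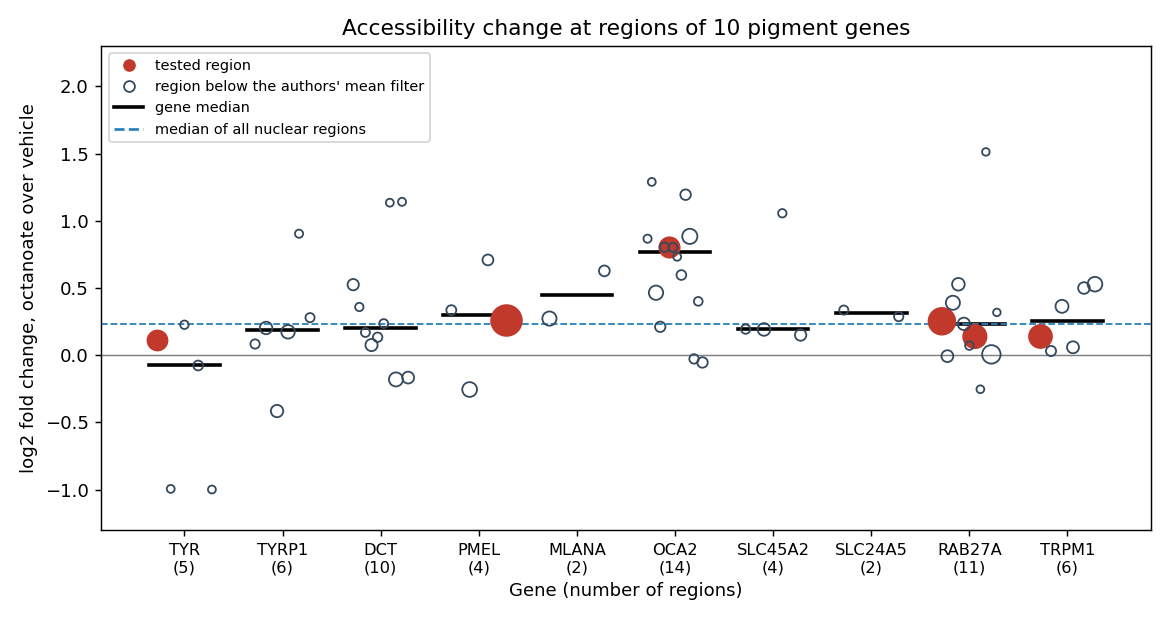
Deposited log2 fold change of octanoate over vehicle (y axis) for each region of the 10 genes (x axis, number of regions in brackets), with points ordered by position and sized by mean normalized reads. Filled points were tested by the authors, black bars are gene medians and the dashed line is the nuclear median of 0.23; the OCA2 median of 0.77 stands above the others and the TYR median of -0.08 below 0.

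**Figure D3:**
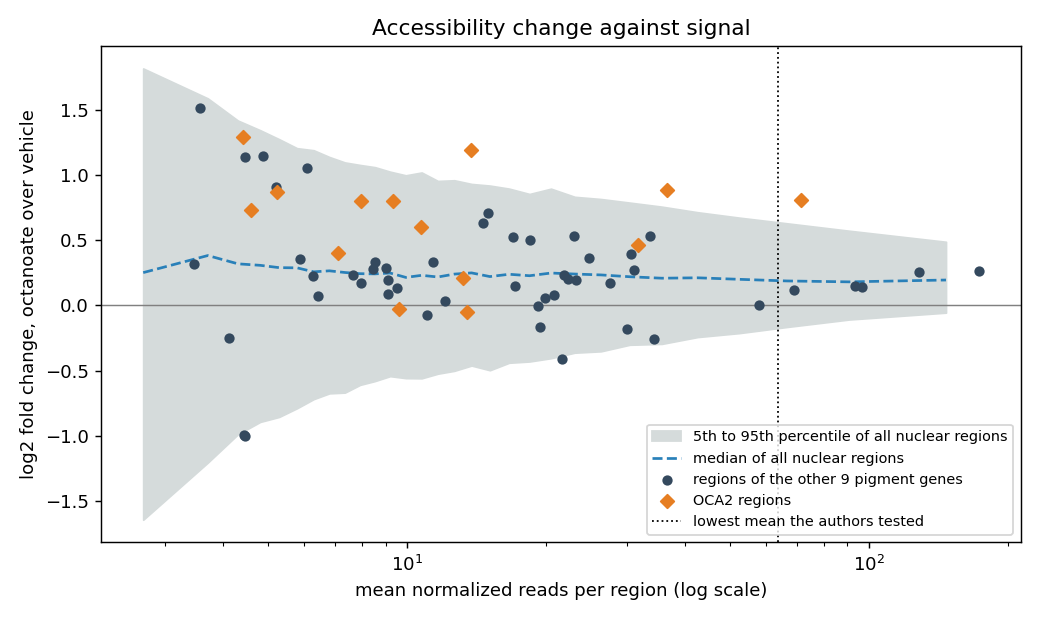
Deposited log2 fold change of octanoate over vehicle (y axis) against mean normalized reads per region (x axis, log scale) for the pigment regions, over the 5th to 95th percentile band and median of all nuclear regions in 30 bins of equal size. Most points lie inside the band, which is widest at low signal, and the OCA2 diamonds lie mostly above its median line.

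TYR encodes tyrosinase, the rate-limiting enzyme of melanin synthesis, and its 5 regions had a median log2 fold change of -0.08 according to the authors' deposited table, the 1 negative median among the 10 genes. The strongest region, 8908 bp upstream of the start (chromosome 11, 89168186 to 89168967), had a mean of 68.9 normalized reads and a log2 fold change of 0.11 according to the authors' deposited table (standard error 0.25, DESeq2 adjusted p 0.867). From the mean and the fold change of the authors' deposited table, the implied group means there were 66.2 reads for vehicle and 71.6 for octanoate. Inside the gene and just upstream of it TYR had only weak regions, with means between 4.43 and 11.1 reads. Both extreme values came from these: the authors' deposited table gave -0.994 (standard error 1.09) to the region 1714 bp upstream of the start and -0.999 (standard error 1.09) to the one near the 3′ end (89294399 to 89294627). Each rests on about 4 normalized reads per library, and both intervals reach above 1. The 3 regions with negative values were all among the weak ones, each with a standard error larger in size than the median of -0.08. That median became 0.0070 when the window was widened to 50 kb, and the cause of its sign was not tested.

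TYRP1, which oxidizes a later intermediate and stabilizes tyrosinase, had 6 regions, none tested, with a median of 0.19 according to the authors' deposited table and a log2 ratio of summed implied signal of 0.086. The strongest (chromosome 9, 12708447 to 12709006) lay inside the gene and had a mean of 27.6 reads and a log2 fold change of 0.17 (standard error 0.40) according to the authors' deposited table. The smallest p of the gene belonged to a neighbouring region, 12703950 to 12704461, at -0.42 (standard error 0.45, DESeq2 Wald p 0.352) in the authors' deposited table. These regions lie a few kb apart, have similar signal and carry opposite signs, with intervals that overlap.

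DCT, dopachrome tautomerase, had 10 regions, none tested, and a median of 0.20 according to the authors' deposited table. The region over the M-box stretch (chromosome 13, 94479497 to 94480247) had a mean of 20.9 reads and a log2 fold change of 0.08 (standard error 0.46, 95% interval -0.83 to 0.98) according to the authors' deposited table. Implied means there were 20.3 reads for vehicle and 21.4 for octanoate. At the distal, CpG-rich start (94549260 to 94550215) the authors' deposited table gave a mean of 30.0 reads and -0.18 (standard error 0.38). Values of 1.13 and 1.14 in the authors' deposited table belonged to weak regions with means of 4.46 and 4.88 reads, the second of which (94551581 to 94551838) had the smallest p of the gene, 0.274. Neither start of DCT therefore showed a detectable difference at this precision.

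PMEL, the amyloid scaffold protein, had 4 regions with a median of 0.30 according to the authors' deposited table, which became 0.040 over the 2 regions in the gene span and 0.12 in 50 kb windows. The region over the end of the PMEL span that also lies within 1 kb of an end of CDK2, a cell cycle kinase gene (chromosome 12, 55966494 to 55967070), had a mean of 34.2 reads and a log2 fold change of -0.26 (standard error 0.36) according to the authors' deposited table. The strongest of all 64 regions, at 173 reads, also fell in this window (55973316 to 55974660), but it lay within 1 kb of the start of RAB5B, an endosomal GTPase gene, and of the other end of CDK2. It had 0.26 (standard error 0.17, DESeq2 adjusted p 0.460) in the authors' deposited table, with implied means of 157 reads for vehicle and 189 for octanoate. Counting it with PMEL follows from the 10 kb window and not from any link to that gene.

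MLANA, the Melan-A antigen of melanocytes, had 2 regions and no start region. The one upstream (chromosome 9, 5886071 to 5886560) had a mean of 31.0 reads and 0.27 (standard error 0.39) in the authors' deposited table, and in that table the one at the 3′ end (5909997 to 5910422) had 14.6 reads and 0.63 (standard error 0.58). Both values are positive, and both intervals include 0. MLANA also gives the region just outside the 10 kb limit, 10.7 kb from the gene, with 58.9 reads and 0.38 (standard error 0.27) in the authors' deposited table. The region just inside the limit lay 9.65 kb from SLC45A2 and had 9.13 reads and 0.19 (standard error 0.70) in the authors' deposited table.

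OCA2, a membrane protein needed for the melanosomal chloride current and mutated in oculocutaneous albinism, had the highest median of the 10 genes. Its 14 regions (chromosome 15, 27737814 to 28107240), 12 in the gene span of 380 kb and 2 upstream of it, had a median log2 fold change of 0.77 according to the authors' deposited table, and 12 of 14 were above 0. The implied signal summed over them was 186 normalized reads for vehicle and 293 for octanoate, a log2 ratio of 0.66 against 0.21 for all nuclear regions. The median of OCA2 exceeded that of 99.8% of the other 1835 protein-coding genes with at least 10 regions in the same kind of window. Of those genes 4 were as high, and the 5th to 95th percentile of these gene medians ran from -0.04 to 0.51. This rank is a description without a test, and OCA2 was singled out with its values known.

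The strongest OCA2 region was centred 255 kb inside the gene (chromosome 15, 27843856 to 27844849) and had a mean of 71.5 reads. Its implied means were 52.1 reads for vehicle and 90.9 for octanoate, and the authors' deposited table gave it a log2 fold change of 0.80 (standard error 0.25, 95% interval 0.31 to 1.30, DESeq2 adjusted p 0.0758). It missed the 0.05 threshold and was the 1 pigment region with an adjusted p under 0.1, where 2.98% of all tested regions were. After the median of the tested regions was subtracted, its adjusted p was 0.949. The other regions with an unadjusted DESeq2 Wald p under 0.05 were centred 2.98 and 13.0 kb inside the gene and were not tested by the authors: the authors' deposited table gave 0.88 (standard error 0.36, p 0.0140, mean 36.5 reads) to 28095893 to 28096774 and 1.19 (standard error 0.59, p 0.0416, mean 13.8 reads) to 28086091 to 28086485. After the nuclear median was subtracted, 1 of these 3 regions kept such a p, and 0.813% of all nuclear regions were higher by that rule.

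By position along OCA2, the 3 regions centred at -7.41, -2.14 and 0.41 kb from the start had -0.05, 0.40 and -0.03 in the authors' deposited table, with standard errors from 0.68 to 0.81. The start region itself (28098645 to 28099170) had the value -0.03 and implied means of 9.72 reads for vehicle and 9.54 for octanoate. The other 11 regions, all farther inside the gene, ran from 0.21 to 1.29 in the authors' deposited table, with a median of 0.80. This division was made after the values were seen, and with intervals as wide as these the difference between start and interior was not tested. Over all nuclear regions, those within 1 kb of a protein-coding start had the lower median, 0.14 against 0.25 for the others. A lower value near a start is thus not particular to OCA2.

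**Figure D4:**
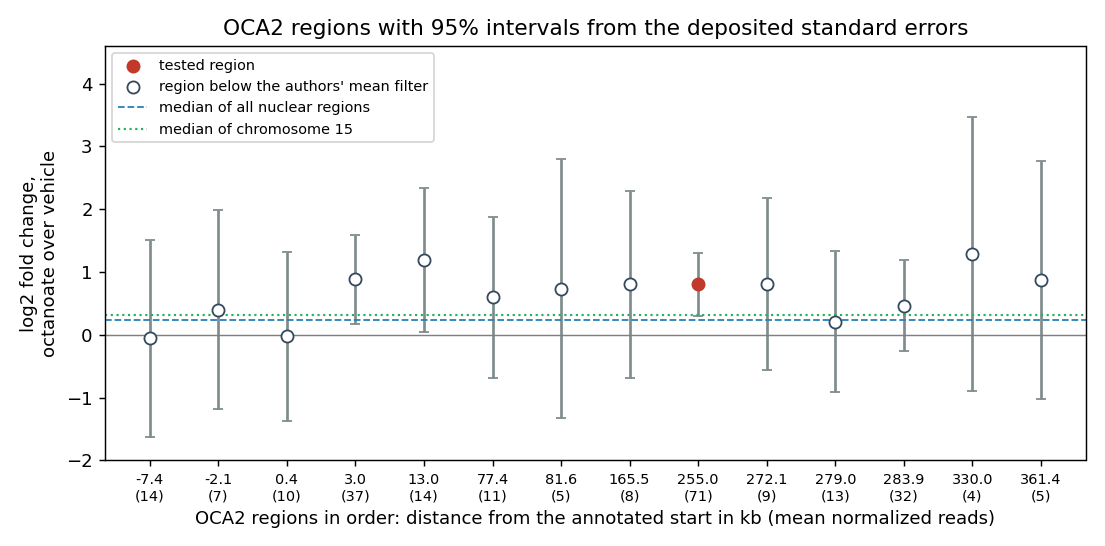
Deposited log2 fold change of octanoate over vehicle (y axis) for the 14 OCA2 regions in order from upstream to the 3′ end (x axis, distance from the annotated start in kb, mean normalized reads in brackets), with 95% intervals from the deposited standard errors. The 11 regions farther inside the gene than the start region lie between 0.21 and 1.29, 3 intervals exclude 0, and 1 lies wholly above the nuclear median of 0.23.

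The median over the surroundings of OCA2 was also above the nuclear median, though not at each neighbouring gene. Chromosome 15 had the highest median among the autosomes and X, 0.31 over 3593 regions of the authors' deposited table, and the 51 other regions within 1 Mb of OCA2 had 0.42. Medians within neighbouring gene spans in the authors' deposited table were 0.46 over 16 regions of GABRG3, a GABA receptor subunit gene, and 0.41 over 5 regions of the ubiquitin ligase gene HERC2. Farther along the chromosome, APBA2 had 0.10 over 13 regions, below the nuclear median, and ENTREP2 had 0.42 over 19 regions of the authors' deposited table. The OCA2 median lay above that of the regions within 1 Mb, and the part of the surroundings in it was not tested. The other 3 genes on chromosome 15 had lower medians: in the authors' deposited table the medians were 0.31 for SLC24A5, 0.26 for TRPM1 and 0.23 for RAB27A, each at or below the chromosome's own 0.31.

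**Figure D5:**
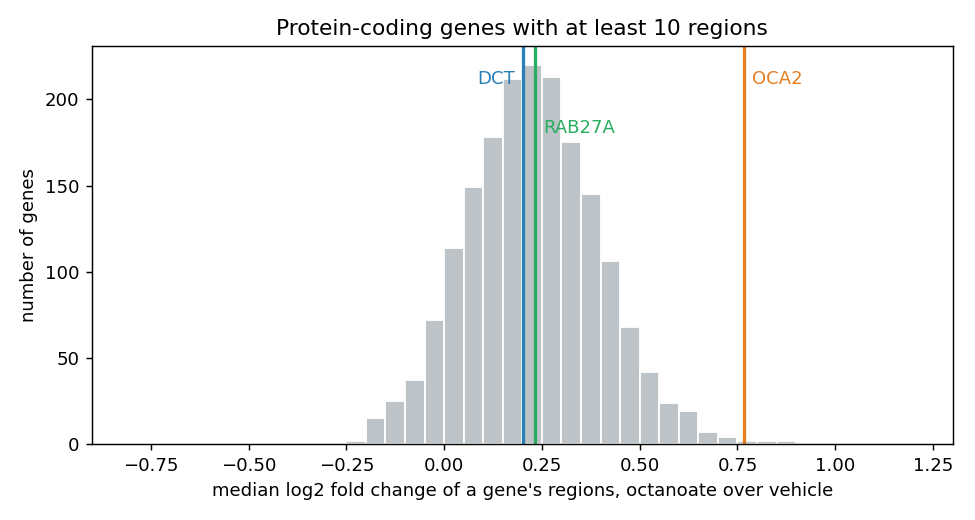
Distribution of the median deposited log2 fold change of octanoate over vehicle (x axis) over protein-coding genes with at least 10 regions (y axis, number of genes in bins of 0.05). Lines mark DCT at 0.20, RAB27A at 0.23 and OCA2 at 0.77; the first pair lie near the centre of the distribution and OCA2 in its upper tail.

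SLC45A2, a melanosomal transporter with a role in pH control, had 4 regions with a median of 0.19 according to the authors' deposited table, none tested. The strongest (chromosome 5, 33935908 to 33936428) lay within 1 kb of the start of RXFP3, a relaxin receptor gene, and had 23.2 reads and 0.19 (standard error 0.43) in the authors' deposited table. One weak region (33939985 to 33940284) with 6.09 reads had the smallest p of the gene, at 1.06 (standard error 0.89, DESeq2 Wald p 0.236) in the authors' deposited table. SLC24A5, a potassium-dependent sodium-calcium exchanger, had 2 regions upstream and none within its span. Their means were 9.01 and 8.52 reads, and the authors' deposited table gave them 0.29 (standard error 0.71; 48119319 to 48119638) and 0.34 (standard error 0.73; 48112214 to 48112565). No log2 fold change smaller than 1.39 could have reached an unadjusted p of 0.05 at either.

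RAB27A had 11 regions and a median of 0.23 according to the authors' deposited table, or 0.14 over the 9 regions in its span. It had 2 regions within 1 kb of its start. The one over the start (chromosome 15, 55318817 to 55319543), also within 1 kb of the starts of PIGB and PIGBOS1, had 58.0 reads, just under the authors' limit. There the authors' deposited table gave 0.01 (standard error 0.28, 95% interval -0.54 to 0.55), with implied means of 57.8 reads for vehicle and 58.1 for octanoate. The second, 846 bp inside the gene (55318078 to 55318277), had a mean of 3.57 reads and the highest log2 fold change of the 64 regions, 1.51 (standard error 1.25, 95% interval -0.93 to 3.95), in the authors' deposited table. A broad region inside the gene (55289006 to 55290890) had 96.7 reads and 0.14 (standard error 0.21, DESeq2 adjusted p 0.797) in the authors' deposited table. The strongest region of the window (55196353 to 55197535) had 129 reads and 0.25 (standard error 0.19, DESeq2 adjusted p 0.546) in the authors' deposited table, and it lay at the start of RSL24D1, a ribosome biogenesis gene. The intervals of all 4 regions named here include both 0 and the nuclear median.

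TRPM1 had 6 regions, all above 0, with a median of 0.26 according to the authors' deposited table, or 0.42 in 50 kb windows. The strongest (chromosome 15, 30991078 to 30992421) had 93.2 reads and 0.15 (standard error 0.23, DESeq2 adjusted p 0.798) in the authors' deposited table and lay at the start of MTMR10, a neighbouring gene. Within TRPM1 the region with the smallest p (31135527 to 31136618) had 33.7 reads and 0.53 (standard error 0.36, DESeq2 Wald p 0.147) in the authors' deposited table. No region overlapped the miR-211 hairpin (31065032 to 31065141), and the nearest, 15.3 kb away, had 24.8 reads and 0.36 (standard error 0.42) in the authors' deposited table. Of the 6 tested regions in the windows of the 10 genes, 3 lay within 1 kb of an end of another protein-coding gene (RAB5B and CDK2, RSL24D1, MTMR10), and the remaining 3 were those named above upstream of TYR and inside OCA2 and RAB27A.

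Other genes of the pigment pathway were described in the same way. A list of 53 other genes, from melanosome biogenesis complexes to the transcription factors, had 332 regions for 52 of its genes, of which 41 were tested. In the authors' deposited table, 0 of the 41 had an adjusted p under 0.05 (DESeq2), the lowest being 0.242, where 1.02% of all tested regions did, so that a count of 0 is near the background. Of the 41, the authors' deposited table gave 2 an unadjusted p under 0.05, both higher, or 4.88% against 14.8% of tested regions. The median log2 fold change of the 332 regions was 0.15 according to the authors' deposited table, below the nuclear 0.23. That table gave 0.14 over the 12032 regions within 1 kb of a protein-coding start and 0.25 over the other nuclear regions. How many of the 332 lie at starts was not counted, so 0.15 is not read as a lower response of these genes. By group, the authors' deposited table gave medians of 0.12 for the 99 regions of biogenesis genes such as the BLOC-1 and HPS subunits and 0.33 for the 97 regions of transport genes such as MLPH and MYO5A, the partners of RAB27A. It gave 0.14 for the 36 regions of pumps and channels, 0.15 for the 25 regions of receptors and ligands and 0.06 for the 75 regions of transcription factors. Over the tested regions alone the order differed: in the authors' deposited table the 6 of transport genes had a median of 0.10, the lowest of the 5 groups, and the 8 of transcription factors had 0.20, the highest. Medians of this kind are descriptions of these libraries, since regions of 1 gene are not replicates.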

How the data were processed

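Per the labels, ATAC-seq libraries of A375 cells were made with Tn5 and 12 PCR cycles and sequenced as read pairs, in 2 vehicle and 2 octanoate samples, grouped by title. The submitters' processing notes name hg38, Trim Galore, cutadapt, FastQC, Bowtie2, Picard, MACS2, featureCounts, DESeq2 and bedtools 2.29.1, without settings. Whether reads were shifted to the Tn5 insertion site is not given in the sources used here.

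The authors deposited 1 table. Per the file headers it holds a signal (mean normalized read count over 4 libraries, scaling not stated), a log2 fold change of octanoate over vehicle with its standard error, a Wald score, and a p-value with its adjusted p-value. The deposited adjusted p matched Benjamini-Hochberg adjustment restricted to the 11185 regions whose mean reached 63.8, here called tested; elsewhere it is listed as 1 and was not used. The depth per labelled library is unknown, so precision is given by the authors' standard errors.

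Computed here (Python 3.11.15, pandas 2.3.3, scipy 1.17.1) were overlaps with RefSeq GRCh38.p14 spans extended by 10 kb, medians, signal per kb, 95% intervals, and implied group means, which solve the deposited mean and fold change for 2 groups of equal size. Table starts were read as counted from 0, since 1 start was 0, and are printed counted from 1. Exons and introns were not analysed here. Centred p-values subtract a median from each fold change and were tested on simulated data. Named for each gene were its region nearest a start within 1 kb, its strongest region and its region of smallest p, any region with adjusted p under 0.1, and the regions at the window's edge; other regions, the OCA2 regions and neighbours among them, were chosen after their values were seen. The members and lists were chosen with earlier results of these data known.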

Additional observations from a re-analysis of the deposited data

How the results depend on the processing

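The count of 0 pigment regions past an adjusted p of 0.05 became 1 at an adjusted p under 0.1. It was again 0 at 0.01, with Benjamini-Hochberg over all regions, after centring on the tested or the nuclear median, within gene spans alone (44 regions) or in 50 kb windows (125 regions). Counts at an unadjusted p under 0.05 were 1 among tested regions, also in gene spans, in 50 kb windows and after either centring, and 3 among all 64, and the latter became 1 after centring on the nuclear median, an alternative added after the data were seen. The median log2 fold change of the pigment regions was 0.26. Relative to the nuclear median it was 0.029, by construction of the subtraction. Leaving out each gene in turn moved it between 0.21 (without OCA2) and 0.28 (without TYR), and the other settings gave 0.20 to 0.28. Of the gene medians, TYR turned from -0.08 to 0.0070 in 50 kb windows, the cause not being tested, and relative to the nuclear median TYRP1 turned to -0.041, DCT to -0.027 and SLC45A2 to -0.036. The MLANA median of 0.45 became 0.15 in 50 kb windows, and SLC24A5 had no region in its span to give a value. The OCA2 median stayed between 0.54 and 0.80 over its alternatives. After centring on the tested median, 5 of 21 named regions turned: the TYR upstream region to -0.073, TYRP1 12708447 to -0.013, DCT 94479497 to -0.11, the RAB27A start to -0.18 and the region at MTMR10 near TRPM1 to -0.040. Each had been closer to 0 than the subtracted 0.19. Pathway counts were 0 in each setting run. No paired analysis was possible because libraries have no columns of their own, and for the same reason no replicate could be left out. Standard errors of 0.17 to 1.25 limit what single regions can show.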
